A study of Mus musculus with 6 samples.

Results

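EGF-family growth factors and receptors of the ERBB family were measured in CFPAC-1 cells after transfection with a siRNA against KRT7. The group held 9 genes, chosen by their Ensembl identifiers from the 30543 rows of the deposited gene count table: 6 ligands, AREG, EREG, HBEGF, TGFA, BTC and EPGN, and 3 receptors, EGFR, ERBB2 and ERBB3. All 9 passed the filter on low counts, which left 15736 genes for testing. CFPAC-1 is an established human line derived from a pancreatic ductal adenocarcinoma, and every library came from this 1 line. It was grown in medium with fetal bovine serum and transfected either with si-Control, a negative control siRNA (3 libraries), or with si-KRT7 (3 libraries), so both groups carried a siRNA and differed in its target, keratin 7. The hours between transfection and harvest, and which KRT7 duplex was sequenced, are not given in the sources used here. The labels do not say whether the replicates were separate cultures, so the p-values below measure the spread between these libraries, which may be technical.

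The ligands are made as membrane-anchored precursors and are cut loose from the cell surface by metalloproteases such as ADAM17 and ADAM10, after which they act on the same cell or on neighbours. Binding makes the receptors pair, and the paired kinases switch on the MAPK and PI3K-AKT cascades, which also raise transcription of several of the ligands. In the pancreas EGFR signaling is known for its part in acinar-to-ductal metaplasia, in which acinar cells take on a duct-like state.

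The samples are labelled as mouse, whereas all 30543 identifiers are human Ensembl identifiers. The gene tables used here were those of the mouse, and 0 identifiers matched them. The 9 genes therefore carry the symbols assigned with their identifiers, while KRT7 itself, markers of ductal or other cell types, other genes of the pathway and gene lengths were not analysed here. Without lengths, levels of different genes were not ranked against each other. The libraries held between 28208896 counts (si-KRT7 replicate 2) and 36315802 counts (si-Control replicate 2). Values are given as CPM (counts scaled to a library of the same nominal size) after TMM normalization, a scaling for library size and composition. The factors ran from 0.976 (si-KRT7 replicate 2) to 1.03 (si-KRT7 replicate 1). One library stood apart: over the genes tested, si-KRT7 replicate 2 had a Pearson correlation of 0.982 with each of the other si-KRT7 libraries, which had 0.992 with each other. This is a correlation across genes, which are not independent replicates. The fold change of each gene and the counts over the 9 genes are therefore also given without it. That library was picked because it stood apart in these same data, and leaving it out narrows the spread. The common coefficient of variation between libraries in edgeR was 0.130 with it and 0.048 without it. Intervals and p-values from the fit without it are therefore likely too narrow and too small.

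The number of these genes that passed the test depended on si-KRT7 replicate 2: it was 0 of 9 with all 6 libraries and 5 of 9 without that one. Without that library 42.9% of all genes tested passed too, so the 5 do not set these genes apart. With all 6 libraries, 0 of 9 had an adjusted p under 0.05 in edgeR's quasi-likelihood test, whereas 2.07% of all genes tested did (0.712% higher and 1.35% lower). A count of 0 among 9 genes is near that share and does not set these genes apart. At an unadjusted p under 0.05 there were 2 of 9, ERBB3 and HBEGF, beside 18.6% of all genes. DESeq2 and limma-voom also called 0 of 9, while over all genes they called 1148 and 309. Each had 2 of the 9 at an unadjusted p under 0.05. The share of all genes at that limit was computed for edgeR only. The median log2 fold change was 0.066 over the 9 genes and 0.011 over all genes tested, and the median size of the change, without its sign, was 0.15 and 0.18. The approximate 95% intervals of 8 of the 9 genes lay within 1.5-fold in either direction, and that of EPGN was wider. Without si-KRT7 replicate 2, 7 of the 9 intervals lay within 1.5-fold. BTC then lay only just outside, with an upper bound of 0.59 on the log2 scale. The share of all genes with intervals within 1.5-fold was not computed, so these counts do not set the 9 genes apart. Without that library the median log2 fold change was 0.14 over the 9 genes and -0.0094 over all genes tested. In bulk RNA, a smaller share of cells with a transcript and less transcript per cell cannot be told apart.

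**Figure D1:**
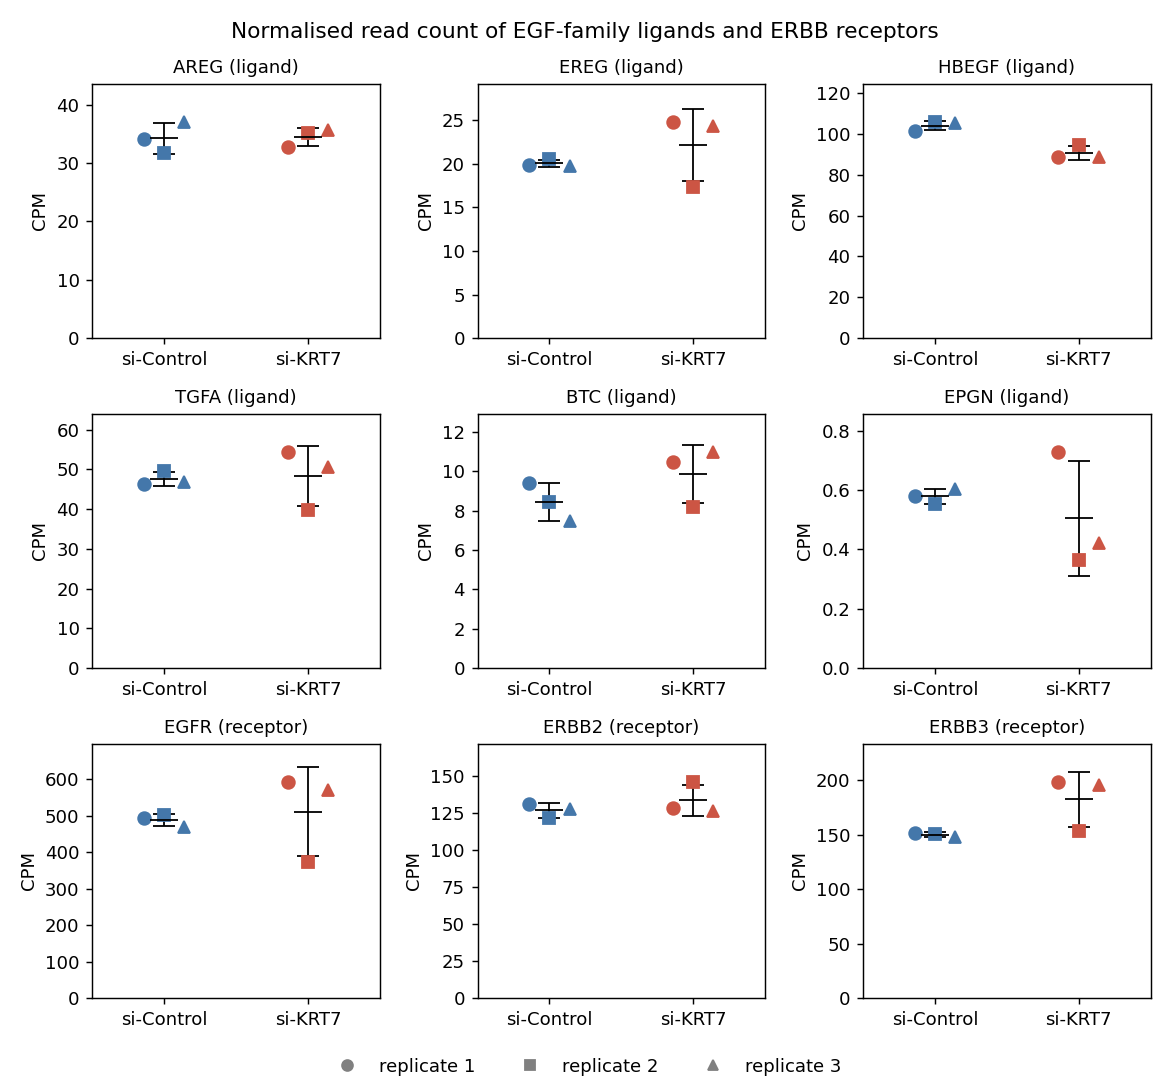
CPM of the 6 ligands and 3 receptors (vertical axes, each from 0) in si-Control and si-KRT7 libraries, with a symbol for each replicate, and the mean and SD of 3 libraries as a bar with whiskers. The si-Control libraries lie close together in most panels, and si-KRT7 replicate 2 (square) lies below replicates 1 and 3 for EREG, TGFA, BTC, EPGN, EGFR and ERBB3.

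Among the receptors, EGFR (ENSG00000146648), the main receptor for these ligands, had a mean close to that of the controls and a wide spread. It was at 494, 503 and 470 CPM in si-Control replicates 1, 2 and 3, and at 592, 372 and 571 CPM in si-KRT7 replicates 1, 2 and 3. Replicates 1 and 3 of si-KRT7 thus lay above every control and replicate 2 below every control, at 121%, 117% and 76.2% of the si-Control mean in replicates 1, 3 and 2. Its mean over the si-Control libraries was 489 ± 17.4 CPM (SD, n = 3), that over the si-KRT7 libraries 512 ± 121 CPM (SD, n = 3), with a log2 fold change of 0.066 (95% interval -0.30 to 0.43, adjusted p = 0.863 in edgeR). The SD among si-KRT7 libraries was larger than the difference between the means, and the value rested on single libraries. It was 0.25 without si-KRT7 replicate 2 (95% interval 0.18 to 0.32, adjusted p = 2.16e-06 in edgeR), -0.054 without replicate 1 and -0.021 without replicate 3.

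ERBB3 (ENSG00000065361), a receptor with a weak kinase that binds neuregulins and docks PI3K, had the smallest p of the 9 genes. It was at 152, 151 and 148 CPM in the si-Control libraries, and at 198, 154 and 196 CPM in si-KRT7 replicates 1, 2 and 3. The groups did not overlap, but replicate 2 lay only just above the highest control, at 102% of the si-Control mean, while replicates 1 and 3 were at 132% and 131%. The log2 fold change was 0.28 (standard error 0.11, 95% interval 0.041 to 0.52), with an unadjusted p of 0.0268 and an adjusted p of 0.204 in edgeR. In an exact permutation test of the log2 CPM (two-sided) p was 0.1, and no lower p is possible with 3 libraries in each group.

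ERBB2 (ENSG00000141736), which has no known ligand of its own and acts as the preferred partner of the other receptors, differed little. It was at 131, 121 and 128 CPM in si-Control and at 129, 146 and 127 CPM in si-KRT7 replicates 1, 2 and 3. Replicate 2 was the highest of all 6 libraries, while replicates 1 and 3 lay within the range of the controls. Its log2 fold change was 0.075 (95% interval -0.12 to 0.27, adjusted p = 0.687 in edgeR). It was 0.0048 without si-KRT7 replicate 2 (95% interval -0.080 to 0.090, adjusted p = 0.941 in edgeR) and 0.041 without si-Control replicate 2.

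The balance of the receptors within a library does not depend on the scaling between libraries, and was compared for the 3 receptor pairs after their values had been seen. The log2 ratio of EGFR to ERBB3 counts, set to a mean of 0 in si-Control cells, was -0.12, -0.43 and -0.16 in si-KRT7 replicates 1, 2 and 3 and between -0.032 and 0.034 in si-Control. It was lower in 3 of 3 si-KRT7 libraries (exact permutation p = 0.1, two-sided, 0.3 adjusted over the 3 ratios). For EGFR to ERBB2 the ratios of si-KRT7 replicates 1, 2 and 3 were 0.26, -0.59 and 0.23, against -0.070 to 0.11 in si-Control (exact permutation p = 1). The ratio of ERBB3 to ERBB2 lay at 0.38, -0.17 and 0.39, against -0.038 to 0.072 (exact permutation p = 0.4, adjusted p = 0.6). Replicates 1 and 3 thus lay above the controls in both ratios to ERBB2 and replicate 2 below them. The ratio of EGFR to ERBB3 was below the controls with or without replicate 2. How often the ratios of other gene pairs part in this way was not computed, so this does not set the pair apart. For single genes, groups without overlap were seen in 24.4% of all genes tested.

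Among the ligands, HBEGF (ENSG00000113070), a heparin-binding factor for EGFR and ERBB4 that is also the diphtheria toxin receptor, was lower in every si-KRT7 library. It was at 101, 106 and 105 CPM in si-Control, and at 88.6, 94.7 and 88.9 CPM in si-KRT7 replicates 1, 2 and 3. The groups did not overlap, and HBEGF reached 85.2%, 91.0% and 85.4% of the si-Control mean in si-KRT7 replicates 1, 2 and 3. Replicate 2 lay nearest to the controls but on the same side as the other si-KRT7 libraries. The log2 fold change was -0.20 (standard error 0.074, 95% interval -0.37 to -0.028), with an unadjusted p of 0.0276 and an adjusted p of 0.207 in edgeR (exact permutation p = 0.1). Groups without overlap were thus seen for 1 gene of 9 in each direction, ERBB3 higher and HBEGF lower. Over all genes tested the shares were 11.3% higher and 13% lower. Without si-KRT7 replicate 2, 5 genes did not overlap upward and 1 downward, beside 29.8% and 30.8% of all genes.

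For EREG and TGFA the si-KRT7 libraries were placed around the controls as they were for EGFR. EREG (ENSG00000124882), or epiregulin, a low-affinity ligand of EGFR and ERBB4, was at 19.9, 20.5 and 19.8 CPM in si-Control and at 24.8, 17.3 and 24.4 CPM in si-KRT7 replicates 1, 2 and 3. Replicates 1 and 3 were above every control and replicate 2 below every one. Its log2 fold change was 0.15 (95% interval -0.18 to 0.47, adjusted p = 0.631 in edgeR). It was 0.29 without si-KRT7 replicate 2 (adjusted p = 0.00318 in edgeR), 0.056 without replicate 1 and 0.072 without replicate 3.

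TGFA (ENSG00000163235), a high-affinity EGFR ligand that pancreatic tumour cells commonly make for themselves, was at 46.4, 49.6 and 46.8 CPM in si-Control and at 54.2, 39.7 and 50.6 CPM in si-KRT7 replicates 1, 2 and 3. The si-KRT7 libraries were placed around the controls in the same way, but replicate 3 lay close to the highest control. For TGFA the log2 fold change was 0.019 (95% interval -0.26 to 0.30, adjusted p = 0.956 in edgeR), and it was 0.14 without si-KRT7 replicate 2 (adjusted p = 0.0628 in edgeR). It turned negative without si-KRT7 replicate 1 (-0.077), si-KRT7 replicate 3 (-0.018) or si-Control replicate 1 (-0.0016). This arrangement, with si-KRT7 replicates 1 and 3 above all controls and replicate 2 below all of them, was seen in 3 of the 9 genes, EGFR, EREG and TGFA. It was noticed in these values, and over all genes tested the share was 12.1%. The opposite arrangement was seen in 0 of the 9 genes and in 12.4% of all genes.

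BTC (ENSG00000174808), betacellulin, another ligand of EGFR and ERBB4, was at 9.42, 8.43 and 7.50 CPM in si-Control and at 10.5, 8.18 and 10.97 CPM in si-KRT7 replicates 1, 2 and 3, from 225 to 389 counts per library. Replicates 1 and 3 lay above the controls and replicate 2 within their range, so that the groups overlapped. BTC had a log2 fold change of 0.23 (95% interval -0.12 to 0.57, adjusted p = 0.466 in edgeR). It was 0.34 without si-KRT7 replicate 2 (adjusted p = 0.0254 in edgeR), and 0.14 and 0.15 without si-KRT7 replicate 3 and si-Control replicate 3.

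AREG (ENSG00000109321), amphiregulin, an EGFR ligand that is often induced by EGFR signaling itself, showed no separation. It was at 34.0, 31.6 and 36.9 CPM in si-Control and at 32.7, 35.1 and 35.6 CPM in si-KRT7 replicates 1, 2 and 3. All si-KRT7 values lay within the range of the controls, and the log2 fold change was 0.011 (95% interval -0.20 to 0.23, adjusted p = 0.966 in edgeR). The sign of that value changed in 4 of the 14 alternative fits. Older human annotations list a near-identical copy of AREG beside it. The annotation used for counting is not given in the sources used here, so a split of reads between the copies was not tested and the level of AREG is uncertain.

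EPGN (ENSG00000182585), epigen, a low-affinity EGFR ligand, was barely detected. It had 20, 20 and 19 counts in si-Control and 27, 10 and 13 counts in si-KRT7 replicates 1, 2 and 3, which is 0.580, 0.553 and 0.604 CPM against 0.727, 0.364 and 0.422 CPM. Replicate 1 of si-KRT7 was the highest of the 6 libraries and replicates 2 and 3 the lowest. At this depth, 10 counts have an exact 95% Poisson interval of 4.80 to 18.4 and 27 counts one of 17.8 to 39.3, which cover counting error only. The log2 fold change was -0.17 (95% interval -1.01 to 0.66, adjusted p = 0.842 in edgeR). The interval spans 0.496 to 1.59 times the control level, so a change within that range in either direction is not excluded. It is not a limit of detection. The log2 fold change ran from -0.55 without si-KRT7 replicate 1 to 0.0021 without replicate 2.

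**Figure D2:**
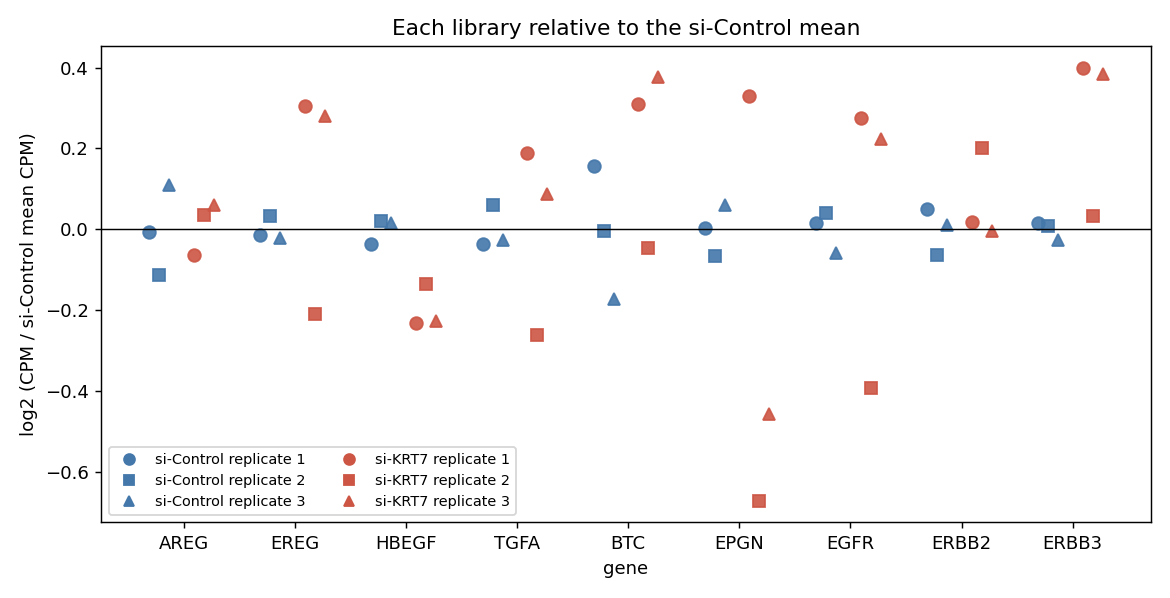
Log2 ratio of CPM in each library to the si-Control mean of the same gene (vertical axis) for the 9 genes (horizontal axis), with si-Control libraries in blue, si-KRT7 libraries in red and a symbol for each replicate. For EGFR, replicates 1 and 3 of si-KRT7 lie at 0.28 and 0.22 and replicate 2 at -0.39, whereas all 3 si-KRT7 libraries lie below 0 for HBEGF.

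The spread among si-KRT7 libraries was larger than among si-Control libraries for 8 of the 9 genes, with AREG as the exception. Over all genes tested the share was 76.6%. The median SD of log2 CPM over the 9 genes was 0.053 in si-Control and 0.23 in si-KRT7 libraries, against 0.088 and 0.23 over all genes tested. Between si-KRT7 replicates 1 and 3 alone it was 0.036 over the 9 genes and 0.070 over the 16202 genes tested in that fit. These are SDs of 2 libraries and cannot be set against the SDs of 3 libraries. With all libraries, the difference in SD between the groups was widest for EPGN and EGFR. Their SDs were 0.058 and 0.052 in si-Control and 0.47 and 0.37 in si-KRT7 libraries. Replicate 2 of si-KRT7 was the lowest of the 6 libraries for 4 genes, EREG, TGFA, EPGN and EGFR, and the highest for 1, ERBB2. Over all genes tested it was the lowest for 26.4% and the highest for 27.6%.

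Without si-KRT7 replicate 2, 5 of the 9 genes had an adjusted p under 0.05 in edgeR, 4 higher and 1 lower. In that fit, with 3 control and 2 si-KRT7 libraries, 42.9% of all genes tested passed the same limit, 20.9% higher and 22% lower. None of the 5 reached 2-fold. The 4 genes that were higher were ERBB3, EGFR, EREG and BTC. ERBB3 had a log2 fold change of 0.39 in this fit (95% interval 0.32 to 0.46, adjusted p = 4.66e-09 in edgeR). HBEGF was the gene that was lower, with -0.23 (95% interval -0.32 to -0.14, adjusted p = 9.05e-05 in edgeR). Its value changed least among the genes that passed, from -0.20 with all libraries to -0.23. TGFA, AREG, EPGN and ERBB2 did not pass, and the values of AREG and EPGN were -0.0040 and 0.0021.

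**Figure D3:**
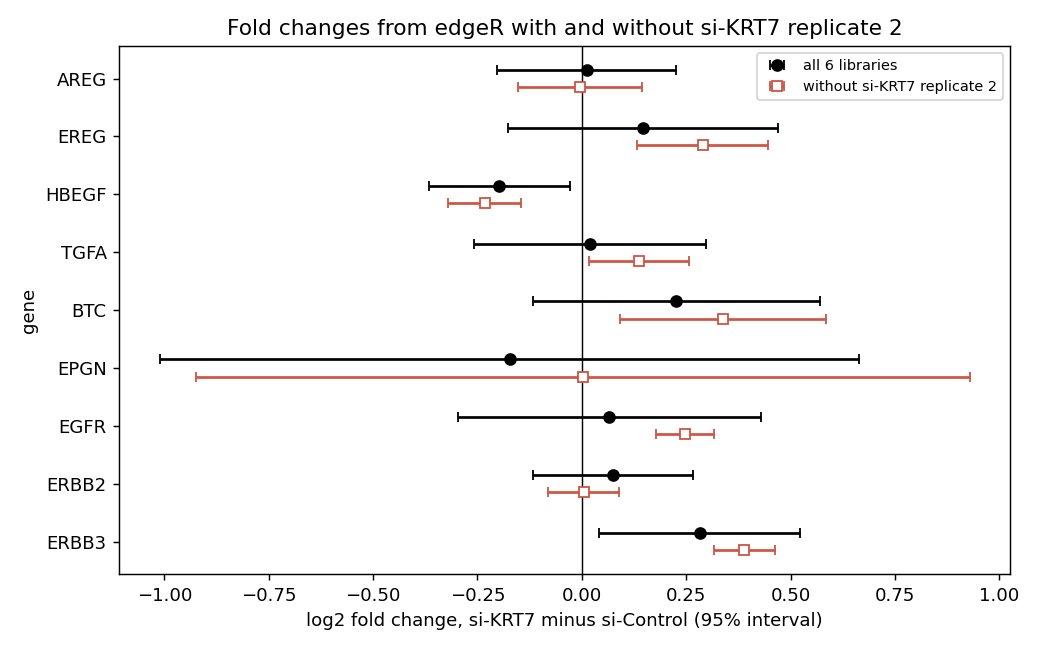
Log2 fold change of si-KRT7 against si-Control (horizontal axis) for the 9 genes (vertical axis) from edgeR, with all 6 libraries (black circles) and without si-KRT7 replicate 2 (open red squares). Bars are approximate 95% intervals, and those of HBEGF and ERBB3 stay on one side of 0 in both fits.

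Limma-voom with sample quality weights, which keeps all libraries and gives less weight to variable ones, also called 5 of the 9 genes, 4 higher and 1 lower. It called 43.6% of all genes tested, 21.8% higher and 21.8% lower. Replicate 2 of si-KRT7 received a weight of 0.0973, and the other libraries weights between 1.20 and 2.11. The genes with an adjusted p under 0.05 were ERBB3, EGFR, EREG, BTC and HBEGF, with adjusted p-values in limma of 5.06e-06, 0.00207, 0.00585, 0.0203 and 8.50e-04. These are the 5 genes that passed in edgeR without replicate 2. Because that library carried little weight here, the fits rest on nearly the same data and are not independent.

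The profiles of the 9 genes over the 6 libraries were compared pair by pair, by the root mean square difference of log2 CPM after centring each gene on its own mean. This is a description over 6 libraries that share the same grouping and the same divergent library. Of the 36 pairs, the most alike were EREG and EGFR, with a difference of 0.068. EREG and TGFA differed by 0.074, TGFA and EGFR by 0.088, AREG and ERBB2 by 0.089, EREG and ERBB3 by 0.089, and BTC and ERBB3 by 0.090. Such closeness was common: of all other tested genes with a mean log2 CPM of at least 3, 5.78% lay closer to EREG than EGFR did, 11.2% closer to EREG than ERBB3 did, and 2.99% lay closer to BTC than ERBB3 did. Without si-KRT7 replicate 2, the closest pair was EREG and EGFR, at 0.031, followed by EREG and ERBB3 at 0.052. The libraries in that comparison are part of the same 6, and the share of other genes lying closer was not computed for it. Over the 6 libraries HBEGF lay nearest to AREG, at 0.13, and EPGN lay at least 0.225 from every other member.

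**Figure D4:**
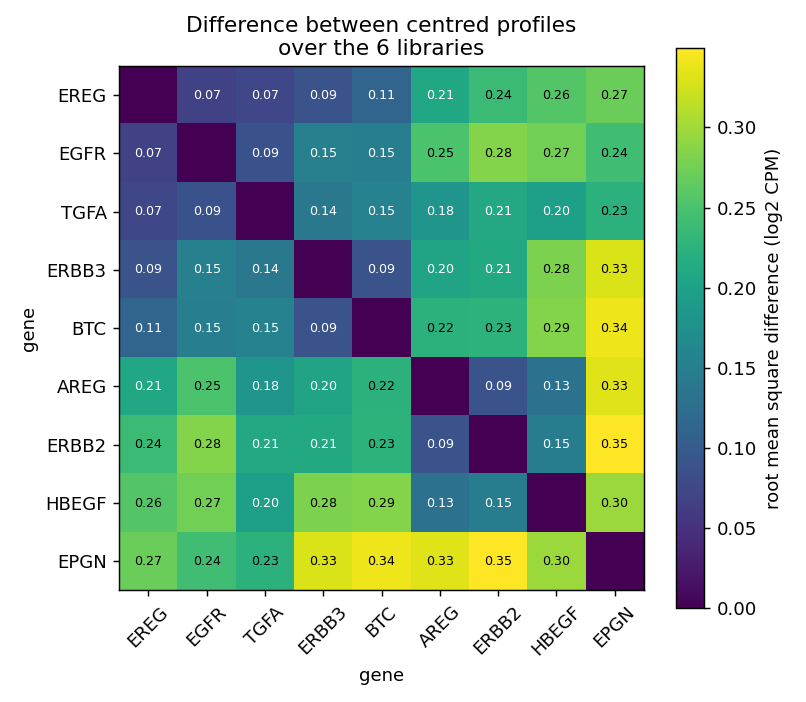
Root mean square difference of centred log2 CPM over the 6 libraries for each pair of the 9 genes (both axes), with darker cells for more similar profiles. EREG, EGFR and TGFA form the darkest block, with differences of 0.068 to 0.088, and EPGN is the lightest row.

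By the rule set for naming similar genes, the member with the widest range of log2 CPM was EPGN. The 3 tested genes most like it had differences of 0.12, 0.15 and 0.15 among 9781 genes compared, and are not named because the table does not pair identifiers with names. With 10 to 27 counts per library, the profile of EPGN itself carries counting error.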

How the data were processed

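Poly(A) RNA was copied from random primers and sequenced on the DNBSEQ platform. The table the authors deposited holds raw counts, whole numbers of reads for each gene in each library. The submitters' processing notes name STAR 2.7.11b and the build GRCm39, a mouse build, although the identifiers are human. The counting tool, strand setting and annotation are not given in the sources used here. Columns named NC and Si with a number were matched to the si-Control and si-KRT7 replicates, and 0 columns of sample values were left unused.

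The test was edgeR 4.0.16 under R 4.3.3 (filterByExpr, TMM, glmQLFit, glmQLFTest). P-values were adjusted by the Benjamini-Hochberg method over 15736 genes, which held 99.9% of all counts. A gene was called at an adjusted p under 0.05. Standard errors were derived as the size of the log2 fold change divided by the square root of F, and the 95% intervals from them are approximate. Log2 CPM for SDs and profiles used a prior count of 2. Alternatives used DESeq2 1.42.0 and limma 3.58.1. The scripts were tested on simulated counts. The members, lists and tests were chosen with earlier results of these data known. All 9 members were named, and similar genes were to be the 3 with the smallest profile difference from the member of widest range. Pathway and marker lists (72 genes in 11 lists) were written by symbol and could not be looked up.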

Additional observations from a re-analysis of the deposited data

How the results depend on the processing

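With limma-voom, DESeq2's Wald test, its size factors in edgeR, no composition factor, no filter on counts, at least 10 counts in every library and the replicate block, 0 of the 9 genes were called, as in the edgeR fit with all libraries. With sample quality weights limma-voom called 5. When each library was left out in turn it ran from 0 to 5, and the 5 came without si-KRT7 replicate 2. Over all genes, 325 were called, against 1148 with DESeq2's Wald test, 6858 with quality weights, 1347 without a filter and 76 with the replicate block, and between 6 and 6944 with a library left out, where the highest came without si-KRT7 replicate 2 and the lowest, 6, without si-Control replicate 1 or 2. The cause was not tested. Deviations of same-numbered libraries had correlations of 0.052, -0.080 and -0.073 across genes. With 3 libraries per group, and si-KRT7 replicate 2 apart from the others in its group, these correlations cannot decide whether equal numbers mark pairs.

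EREG, HBEGF, BTC, ERBB2 and ERBB3 kept their direction in all 14 alternatives. AREG turned to -0.0017 on the log2 scale without a filter, and ranged from -0.044 to 0.067 with a library left out. With a library left out, TGFA ranged from -0.077 to 0.14, EGFR from -0.054 to 0.25 and EPGN from -0.55 to 0.0021, all across 0. None of the genes that turned had an adjusted p under 0.05 in the fit where its direction turned. The alternatives planned for pathway lists were not run, because their symbols could not be looked up. Depth limits EPGN, with 10 to 27 counts per library.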
